A study of Mus musculus with 66 samples.

Results

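Heat shock proteins and chaperonins were followed through the first 56 days of life of the mouse testis. Members were the genes whose symbol in the array annotation starts with Hspa, Hspb, Hspd, Hspe, Hsph, Hsp90, Dnaja, Dnajb, Dnajc or Cct followed by a digit, together with Tcp1. Of 79 such genes with a probe set naming no other gene, 78 reached a signal of 50 on 2 or more arrays, out of 13472 genes that did so in the whole data set. The gene that did not was Dnajc22, with a highest signal of 49.5, and the measured members nearest to that limit were Dnajc11, at 50 or more on 2 arrays, and Dnajb5, on 5 arrays. Dnajc19 appeared only on probe sets that name several genes. No probe set was annotated with the symbol Hsp90ab1 or Dnajc5b, so these genes could not be followed. The prefix also took in Hspb11, a subunit of intraflagellar transport, and Hspbp1 and Hspbap1, which are named for proteins they bind, so that the list is one of names and not of chaperones alone.

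Chaperones hold unfolded proteins and help them reach or keep their fold. Hsp70 proteins bind short exposed stretches in cycles of ATP hydrolysis, DnaJ proteins (also called Hsp40) bring clients to Hsp70 and start that cycle, and Hsp110 proteins release the nucleotide to end it. Hsp90 acts later, on proteins close to their final fold, small heat shock proteins hold unfolded proteins without ATP, and chaperonins enclose a protein in a chamber: the ring of Tcp1 and the Cct subunits in the cytosol, which folds tubulin and actin, and Hspd1 with its lid Hspe1 in mitochondria. Male germ cells are known for chaperone genes of their own, among them Hspa2 in spermatocytes and Hspa1l in spermatids.

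Whole testes of BL/6-129 mice were collected on days 0, 3, 6, 8, 10, 14, 18, 20, 30, 35 and 56 after birth, and total RNA of 2 numbered samples per day was hybridised to 3 array types, giving 66 arrays. The labels name no treatment or mutation, and they do not state if the numbered samples came from different mice or from pooled testes, so that p-values may measure only technical spread. The authors scaled the signals to a common mean, and each value below is such a signal for 1 probe set, the brightest of the gene, with the value of sample 1 before that of sample 2. Changes are differences of log2(signal + 16) between day means ± SE from limma (n = 2 per day), and a change was called when the p-value adjusted over all 13472 genes was under 0.05 and the change at least 2-fold. The added 16 makes the change of a gene with low signals look smaller than it is.

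The summed signal of 7 pachytene spermatocyte markers was 79.8 to 341 over days 0 to 10, 1777 to 12016 over days 14 to 20 and 17106 to 21011 over days 30 to 56, and 4 of the 7 (Pgk2, Ccna1, Tcp11 and Ybx2) were under 50 in every sample up to day 10. The sum of 8 round spermatid markers was 148 to 306, 231 to 1381 and 11894 to 19277 over the same spans, and that of 8 elongating spermatid markers 287 to 1534, 255 to 404 and 34524 to 61945. Sertoli cell markers (9 genes) summed to 7882 to 9251 up to day 10 and 2831 to 3737 from day 30, and endothelial markers (6 genes) to 559 to 2021 and 173 to 299. The 3 erythroid markers reached 12185 before day 14 and 7578 between days 14 and 20, against at most 1168 later. The parts these cell types had in the changes below were not tested, and in whole testis fewer cells of a type and less RNA per cell cannot be told apart. Samples of a day were least alike at day 0, where the correlation of log2 signals was 0.834 to 0.931 over the array types.

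The promoter windows of 7 members whose courses carry the results are shown with the letters of the heat shock element, the site bound by heat shock factors. Windows run from 250 bases before to 50 bases after the start of the gene in RefSeq (GRCm38.p6). Capitals mark the 2-unit letters GAANNTTC and the 3-unit form, in which NNGAA follows them directly, on either strand and with overlaps. All other bases are in lower case. Hspa1a (chr17:34972107-34972406, - strand), Hspa1b (chr17:34959189-34959488, - strand) and Hspa1l (chr17:34972453-34972752, + strand) lie next to each other on chromosome 17. Hspe1 (chr1:55087898-55088197, + strand) neighbours Hspd1, and Hspa2 (chr12:76404120-76404419, + strand), Cct6a (chr5:129787106-129787405, + strand) and Cct6b (chr11:82764272-82764571, - strand) lie apart.
Hspa1a: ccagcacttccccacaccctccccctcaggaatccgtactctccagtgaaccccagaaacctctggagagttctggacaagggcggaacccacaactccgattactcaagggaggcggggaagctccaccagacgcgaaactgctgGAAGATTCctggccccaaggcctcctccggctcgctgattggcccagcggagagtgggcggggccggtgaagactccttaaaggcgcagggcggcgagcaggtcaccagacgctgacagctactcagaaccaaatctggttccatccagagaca
Hspa1b: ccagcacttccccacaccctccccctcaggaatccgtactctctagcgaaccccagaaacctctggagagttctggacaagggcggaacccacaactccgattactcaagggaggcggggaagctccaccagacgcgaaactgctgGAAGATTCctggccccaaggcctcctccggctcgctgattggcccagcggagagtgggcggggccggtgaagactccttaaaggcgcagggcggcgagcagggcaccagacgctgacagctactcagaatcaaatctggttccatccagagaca
Hspa1l: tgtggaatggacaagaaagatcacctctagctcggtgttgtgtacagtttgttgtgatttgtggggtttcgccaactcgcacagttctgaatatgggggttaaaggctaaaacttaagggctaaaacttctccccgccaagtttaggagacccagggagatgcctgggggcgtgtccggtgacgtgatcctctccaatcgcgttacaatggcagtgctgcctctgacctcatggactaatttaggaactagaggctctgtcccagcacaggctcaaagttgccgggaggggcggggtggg
Hspe1: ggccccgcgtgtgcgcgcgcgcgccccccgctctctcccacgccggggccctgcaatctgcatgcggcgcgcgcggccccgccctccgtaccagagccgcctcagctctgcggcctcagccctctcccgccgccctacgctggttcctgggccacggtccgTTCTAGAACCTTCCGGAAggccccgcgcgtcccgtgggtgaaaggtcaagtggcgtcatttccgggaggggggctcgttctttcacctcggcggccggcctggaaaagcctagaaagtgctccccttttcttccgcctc
Hspa2: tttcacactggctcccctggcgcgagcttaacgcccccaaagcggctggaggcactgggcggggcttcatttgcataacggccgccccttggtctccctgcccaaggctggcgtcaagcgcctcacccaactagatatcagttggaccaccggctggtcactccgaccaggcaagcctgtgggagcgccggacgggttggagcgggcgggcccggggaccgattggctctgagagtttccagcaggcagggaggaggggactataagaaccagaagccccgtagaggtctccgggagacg
Cct6a: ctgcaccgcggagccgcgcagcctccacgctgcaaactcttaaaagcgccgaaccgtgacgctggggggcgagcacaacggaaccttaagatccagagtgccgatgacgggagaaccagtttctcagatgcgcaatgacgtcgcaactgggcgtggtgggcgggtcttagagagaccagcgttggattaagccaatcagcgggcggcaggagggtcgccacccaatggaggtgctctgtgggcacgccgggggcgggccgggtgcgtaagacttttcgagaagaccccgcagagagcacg
Cct6b: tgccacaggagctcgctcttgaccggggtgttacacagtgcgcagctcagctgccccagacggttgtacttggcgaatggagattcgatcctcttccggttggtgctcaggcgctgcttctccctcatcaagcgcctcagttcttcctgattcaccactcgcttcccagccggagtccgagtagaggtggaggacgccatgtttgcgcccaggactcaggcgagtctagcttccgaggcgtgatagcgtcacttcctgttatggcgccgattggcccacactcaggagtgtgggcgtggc

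The windows of Hspa1a and Hspa1b, which encode the stress-inducible Hsp70, differ at 4 of 300 bases and hold 1 GAANNTTC each. Hspa1l is read in the opposite direction, its window lies 46 bases from that of Hspa1a, and the letters are not in it. In the Hspe1 window the element is longer, with 2 overlapping matches to the 3-unit form, and of the 2 windows listed for Hspd1 one overlaps that of Hspe1 by 285 bases. The letters of neither element occur in the windows of Hspa2, Cct6a and Cct6b. The units in the opposite order, TTCNNGAA, were not searched for, and the Cct6a window holds them near its end (ttcgagaa). The shares that follow therefore leave out that form. Of 66 members with a window, 15 (22.7%) held GAANNTTC, against 9.04% of 27025 genes, and 4 (Dnajb6, Hspd1, Hspe1 and Hsph1, or 6.06%) held the 3-unit form, against 0.662%. The letters CCAAT on either strand were found for 28 members (42.4%) and 41.1% of genes, TATAAA for 3 members (4.55%) and 15.7%, and TGACGTCA, the letters of the cyclic AMP response element, for Dnajc27 alone (1.52%) and 2.03%. A match is a description of the sequence and not of binding.

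Between day 0 and day 56, 26 of the 78 members rose and 10 fell. Over all 13472 genes 15.9% rose and 21.2% fell, and the median change was 0.43 for the members and -0.21 for all genes. The largest rises were those of Dnajb3, Dnaja4, Cct8l1 and Hspa2, and the largest falls those of Hspe1, Dnajc18, Hspd1 and Hspa1b. A change over the whole course was called for 45 members, against 54.4% of all genes. The members' share is 57.7%, so the number of changing members was near that of genes at large.

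**Figure D1:**
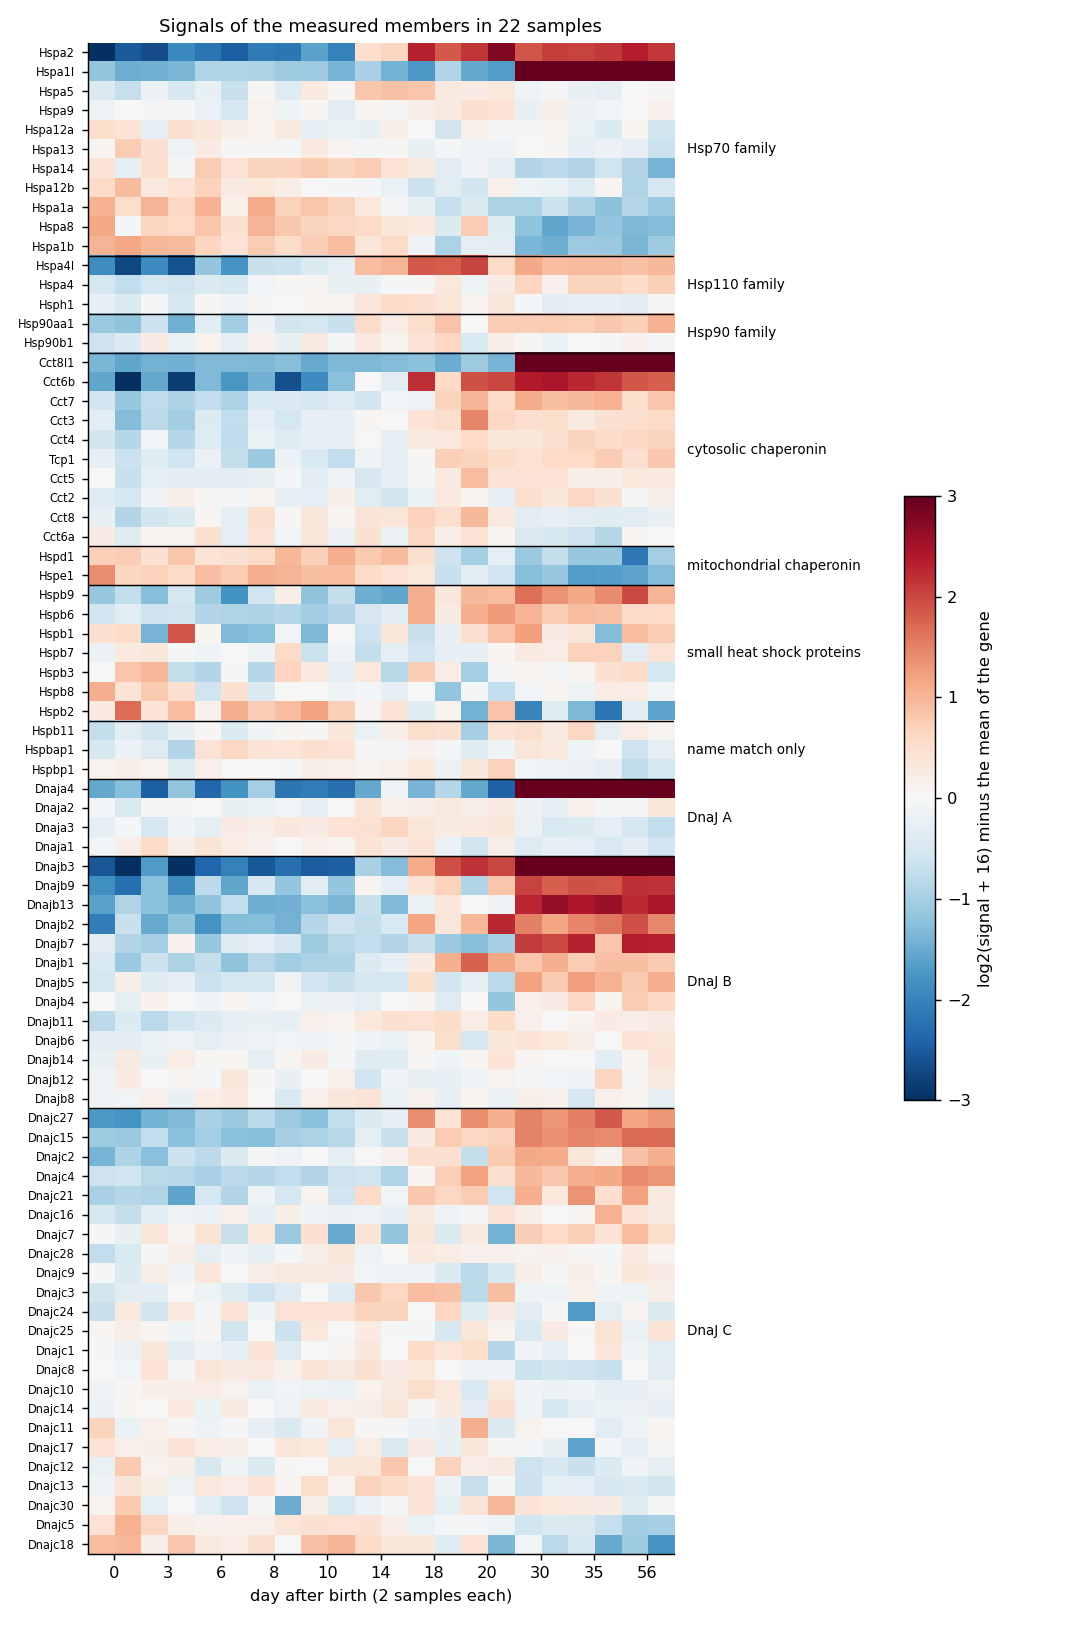
Each row is 1 of 78 members and each column 1 of 22 samples, in order of day (2 samples a day); the colour is log2(signal + 16) minus the mean of that gene. Rows are grouped by family and ordered by the change from day 0 to day 56; red at days 30 to 56 marks Hspa1l, Cct8l1, Dnaja4 and Dnajb7, which were not raised at day 20.

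The changes were also read over shorter spans. Some members called from day 0 to day 56, such as Cct4, Hsp90aa1, Dnajc5 and Hspa1a, were called in none of these. Gradual change was not tested against change in steps. From day 0 to day 8 only Hspa4l rose (1.4% of all genes). From day 8 to day 14 Hspa2, Hspa4l and Hspa5 rose (1.14% of genes), and from day 14 to day 20, 13 members rose and Hspd1 fell (7.45% and 8.41% of genes). These counts were 10 and 5 without sample 1 of day 20 and 15 and 4 without sample 2 of that day. From day 20 to day 35, 8 members rose and Hspa8 and Hspe1 fell (6.08% and 4.36%). Without sample 2 of day 20 the counts were 7 and 7, without sample 2 of day 35 they were 7 and 4, and without sample 1 of day 35 they were 6 and 1. They were 7 and 5 with an added 1 in place of 16 or with a floor of 32, and 8 and 4 after scaling to array medians. In either direction 11%, 11.3% and 10.1% of all genes were called under these settings, against 10.4% in the main fit. Between days 35 and 56 limma called no member and no gene (0%), and 3 members had an unadjusted p under 0.05. In each comparison the later samples of every called member lay on one side of the earlier ones. With 2 samples a day this nearly follows from a call and lends it no support. Members were also placed by the first day from which they stayed called against day 0, with the share of all genes placed there in parentheses. Hspa4l rose from day 8 (0.334%) and Hspa2 from day 10 (0.401%). From day 14, 6 members rose (1.93%), namely Cct6b, Dnajb3, Dnajb9, Dnajc2, Dnajc27 and Hsp90aa1. From day 18, 9 rose (4.69%), namely Cct3, Cct7, Dnajb1, Dnajb2, Dnajb13, Dnajc4, Dnajc15, Hspb6 and Hspb9. Cct4 followed from day 20 (1.02%). Another 7 rose from day 30 (4.85%), namely Cct8l1, Dnaja4, Dnajb5, Dnajb7, Dnajc21, Hspa1l and Hspa4, and Tcp1 from day 35 (0.468%). Of these, Cct8l1, Dnajb5 and Dnajb7 reached a signal of 50 only on arrays of days 30 to 56. The same holds for Dnaja4, apart from sample 2 of day 14. They passed the signal filter through the late days, so their late rise follows in part from that filter. Of the falls, those of Hspa1a, Hspa1b and Hspe1 were placed at day 18 (4.19%), Dnajc18 and Hspd1 at day 20 (2.75%), and Dnajc5, Hspa8 and Hspb2 at day 30 (4.79%). Hspa12b and Hspa14 were placed at day 56 (4.13%). These days mark the first lasting call and not the start of a change. The mean of Hspa1a, for example, was 234 at day 10 and already 148 at day 14.

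**Figure D2:**
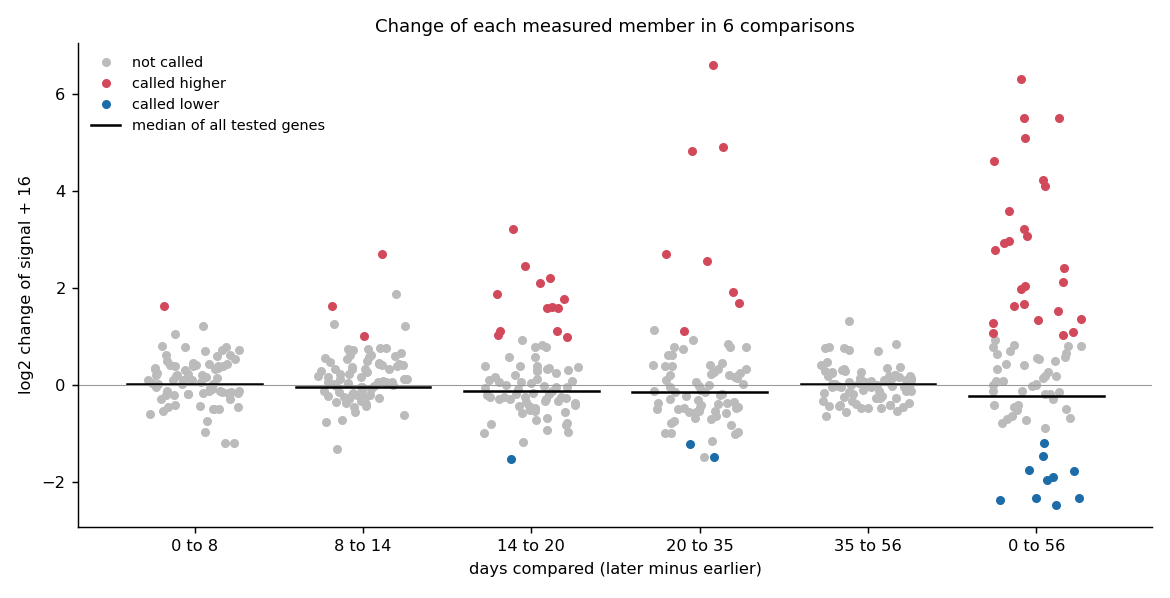
Each point is 1 of 78 members, and the vertical axis is its change of log2(signal + 16) from the earlier to the later day of each pair on the horizontal axis; red and blue points were called higher and lower, grey points were not called, and black bars are the median of all 13472 genes. The rises past 4 are in the comparisons of days 20 to 35 and 0 to 56.

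Among the 11 Hsp70 genes, 2 rose and 5 fell between day 0 and day 56, against 15.9% and 21.2% of all genes. The risers are the germ cell members. Hspa2, without which spermatocytes do not complete meiosis, had signals of 168 and 275 at day 0, 365 and 354 at day 8, 524 and 392 at day 10, 2317 and 2587 at day 14, 8248 and 5895 at day 18, 7284 and 11284 at day 20, 6136 and 6912 at day 30 and 8482 and 7243 at day 56. Both samples of each day from 14 on lay above all samples of days 0 to 10, and no further change was called after day 20. The rise was spread over days 8 to 14 (log2 change 2.71 ± 0.29, adjusted p = 3.72e-05) and 14 to 20 (log2 change 1.88 ± 0.29, adjusted p = 0.000215), and reached a log2 change of 5.09 ± 0.29 (adjusted p = 2.06e-10) from day 0 to day 56. The other probe set of Hspa2, on another array type, gave a log2 change of 5.60 ± 0.25 (adjusted p = 3.89e-11).

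Hspa1l, the Hsp70 of spermatids, had signals of 53.6 and 40.2 at day 0, 57.1 and 43.3 at day 10, 63.1 and 42.3 at day 14, 31 and 67.9 at day 18, 38 and 32.9 at day 20, 1503 and 1607 at day 30, 1652 and 1425 at day 35 and 1621 and 1432 at day 56. The highest of the 16 samples up to day 20 was 67.9 and the lowest of the 6 later ones 1425, so that its step fell after that of Hspa2. From day 20 to day 35 it showed a log2 change of 4.92 ± 0.24 (adjusted p = 9.49e-11), and from day 0 to day 56 a log2 change of 4.62 ± 0.24 (adjusted p = 1.08e-10). Of the round spermatid markers 6 of 8, and of the elongating spermatid markers 8 of 8, were called higher from day 20 to day 35 (6.08% of all genes).

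Hspa8, the constitutive Hsp70 of most cells, had signals of 2415 and 1055 at day 0, 1734 and 1655 at day 10, 1615 and 1382 at day 14, 1333 and 809 at day 18, 1827 and 836 at day 20, 458 and 354 at day 30, 399 and 474 at day 35 and 412 and 431 at day 56. Its 6 samples from day 30 on were the lowest of the course, and at days 0, 18 and 20 the samples of a day were far apart. The fall was called from day 20 to day 35 (log2 change -1.48 ± 0.35, adjusted p = 0.00923) and from day 0 to day 56 (log2 change -1.88 ± 0.35, adjusted p = 0.000274). The call from day 20 to day 35 was lost without sample 1 of day 20 (-0.92, adjusted p = 0.11) and without sample 1 of day 35 (-1.36, adjusted p = 0.0826).

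The stress-inducible genes had an earlier first lasting call than Hspa8, day 18 against day 30. Hspa8, at 1333 and 809 at day 18, was by then under its lowest sample of days 3 to 10 (1490). The order in which the falls began was not tested. Hspa1a had signals of 289 and 196 at day 0, 249 and 218 at day 10, 168 and 128 at day 14, 111 and 75.6 at day 18, 93.8 and 61.1 at day 20, 61.2 and 78.2 at day 30 and 65.2 and 52.9 at day 56. Hspa1a showed a log2 change of -1.77 ± 0.30 (adjusted p = 0.000106) by day 56. Hspa1b had signals of 238 and 262 at day 0, 193 and 223 at day 10, 145 and 169 at day 14, 99.4 and 49.2 at day 18, 86.8 and 84.5 at day 20, 32.2 and 29.1 at day 30 and 32.7 and 43.3 at day 56. Hspa1b showed a log2 change of -2.31 ± 0.23 (adjusted p = 2.59e-07). Both were called lower than at day 0 from day 18 on, while their neighbour Hspa1l had not yet risen. Their transcripts are almost alike, so the arrays may not separate them.

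Of the Hsp70 genes of the organelles, Hspa5, the chaperone of the endoplasmic reticulum, had signals of 1102 and 929 at day 0, 1543 and 1149 at day 8, 2624 and 2797 at day 14, 1782 and 1869 at day 20, 1295 and 1241 at day 35 and 1514 and 1545 at day 56. It was highest at day 14 and rose from day 8 to that day (log2 change 1.02 ± 0.22, adjusted p = 0.0242), while its change from day 0 to day 56 stayed under 2-fold and was not called (log2 change 0.59 ± 0.22, adjusted p = 0.0391). The call at day 14 was lost without sample 2 of day 8 (0.81, adjusted p = 0.327), without sample 1 of day 14 (1.06, adjusted p = 0.127) and without sample 2 of day 14 (0.97, adjusted p = 0.206). For Hspa5 it was also lost with a pseudocount of 64 (0.99, adjusted p = 0.0223) and after scaling to array medians (1.05, adjusted p = 0.0601). Hspa9, the mitochondrial Hsp70, ranged over 440.0 to 674 (median 585) over days 0 to 10, 643 to 880.0 (median 743) over days 14 to 20 and 536 to 716 (median 611) over days 30 to 56. No change of Hspa9 was called in any comparison (by day 56, log2 change 0.16 ± 0.19, adjusted p = 0.541). The ranges of these spans overlap. Hspa14, which acts at the ribosome together with Dnajc2, had signals of 134 and 78.3 at day 0, 183 and 166 at day 10, 90 and 77.6 at day 20 and 46.3 and 27.5 at day 56. For Hspa14 the log2 change from day 0 to day 56 was -1.19 ± 0.27 (adjusted p = 0.00144). This call was lost without sample 1 of day 0 (-0.86, adjusted p = 0.032), without sample 2 of day 56 (-0.93, adjusted p = 0.03) and with the mean of its probe sets (-1.0, adjusted p = 0.0104). For Hspa14 it was also lost with a pseudocount of 64 (-0.74, adjusted p = 0.00314). Hspa12b, a distant relative found mainly in endothelium, had signals of 162 and 214 at day 0, 66.3 and 118 at day 20 and 48.6 and 68.2 at day 56. It fell by day 56 (log2 change -1.46 ± 0.29, adjusted p = 0.000425). Over the same days 3 of 6 endothelial markers were called lower, against 21.2% of all genes. So were 6 of 9 Sertoli markers, with 1 called higher. A link of Hspa12b to either cell type was not tested. Hspa12a (-0.71) and Hspa13 (-0.87) were not called, although another probe set of Hspa12a was called lower (-1.05) and another of Hspa13 higher (1.02).

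**Figure D3:**
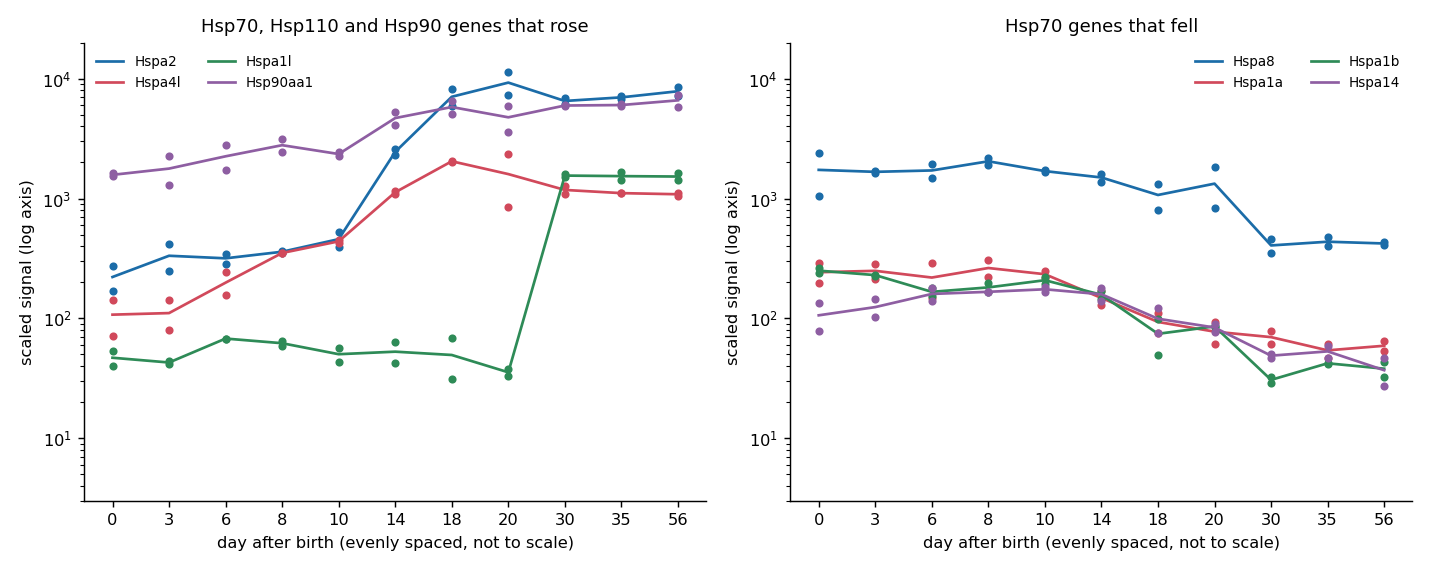
Scaled signal (log axis) by day after birth (days evenly spaced) for Hspa2, Hspa4l, Hspa1l and Hsp90aa1 on the left and Hspa8, Hspa1a, Hspa1b and Hspa14 on the right; points are samples (2 per day) and lines the means. Hspa2 passed its day 10 level by day 14, whereas Hspa1l was at 67.9 or less in all samples up to day 20.

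Of the 3 Hsp110 genes, 2 rose between day 0 and day 56 (15.9% of all genes). Hspa4l, an Hsp110 that is abundant in germ cells, had signals of 144 and 71.1 at day 0, 142 and 79.5 at day 3, 242 and 155 at day 6, 349 and 354 at day 8, 424 and 455 at day 10, 1091 and 1165 at day 14, 2077 and 2017 at day 18, 2348 and 852 at day 20, 1268 and 1092 at day 30 and 1050.5 and 1121 at day 56. Day by day the means climbed from day 3 to day 18, both samples of each day from 30 on were below those of day 18, and at day 20 the samples were far apart. It was called from day 0 to day 8 (log2 change 1.64 ± 0.38, adjusted p = 0.0241), from day 8 to day 14 (log2 change 1.64 ± 0.38, adjusted p = 0.0344) and from day 0 to day 56 (log2 change 3.22 ± 0.38, adjusted p = 2.45e-06). The first of these calls was lost without sample 2 of day 0 (1.20, adjusted p = 0.155), without sample 1 of day 8 (1.65, adjusted p = 0.124) and without sample 2 of day 8 (1.63, adjusted p = 0.136). The call at day 14 was lost without any 1 of the samples of days 8, 10, 14, 30, 35 and 56 (1.59 to 1.68, adjusted p from 0.0516 to 0.238). For Hspa4l it was also lost after scaling to array medians (1.61, adjusted p = 0.055). Its 4 probe sets were all called higher at day 56, with changes from 2.19 to 5.01. The one with the largest change was higher from day 30 on than at day 18, with signals of 755 and 1082 at day 18, 578 and 932 at day 20, 1696 and 1491 at day 30 and 2384 and 2018 at day 56.

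Hspa4, the widely expressed Hsp110, had signals of 270.2 and 231 at day 0, 337 and 387 at day 14, 357 and 472 at day 20, 632 and 432 at day 30 and 592 and 666 at day 56. Its samples of day 56 were above those of day 0 (log2 change 1.28 ± 0.21, adjusted p = 6.71e-05). This call was lost with the mean of its probe sets (0.53, adjusted p = 0.0244). Of its 5 probe sets, 1 gave a log2 change of -0.50 ± 0.23 (adjusted p = 0.0914). Hsph1, a heat-inducible Hsp110, ranged over 141 to 221 (median 197) over days 0 to 10, 219 to 306 (median 264) over days 14 to 20 and 159 to 209 (median 168) over days 30 to 56. No change of Hsph1 was called (by day 56, log2 change 0.19 ± 0.20, adjusted p = 0.467).

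Of the Hsp90 genes, Hsp90aa1, the inducible cytosolic form that spermatocytes need to pass the pachytene stage, had signals of 1621 and 1533 at day 0, 3145 and 2433 at day 8, 2458 and 2248 at day 10, 5256 and 4138 at day 14, 5127 and 6487 at day 18, 3567 and 5963 at day 20, 5935 and 6018 at day 30 and 5827 and 7378 at day 56. All samples of days 14 to 56 were above all of days 0 to 10, the lowest being sample 1 of day 20. It rose by day 56 (log2 change 2.05 ± 0.29, adjusted p = 1.53e-05), although no single step between the days compared was called. Hsp90b1, the form in the endoplasmic reticulum, ranged over 1122 to 2086 (median 1580.0) over days 0 to 10, 1252 to 2647 (median 2047) over days 14 to 20 and 1493 to 1886 (median 1716) over days 30 to 56. No change of Hsp90b1 was called (by day 56, log2 change 0.56 ± 0.24, adjusted p = 0.066).

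Of the 10 cytosolic chaperonin genes, 6 rose between day 0 and day 56 and none fell, against 15.9% and 21.2% of all genes. Of the 8 subunits of the ring, Cct3, Cct4, Cct7 and Tcp1 rose, and the median change of the 8 was 0.86. Cct3 had signals of 825 and 414 at day 0, 1086 and 1033 at day 14, 2925 and 1615 at day 20 and 1498 and 1565 at day 56. Cct4 had 882 and 714 at day 0, 1311 and 1097 at day 14, 1978 and 1650.0 at day 20 and 2011 and 2079 at day 56, and Cct7 had 723 and 484 at day 0, 737 and 1012 at day 14, 2212 and 1629 at day 20 and 1562 and 1928 at day 56. Their changes by day 56 were 1.36 ± 0.28 (adjusted p = 0.00065) for Cct3, 1.35 ± 0.23 (adjusted p = 0.000103) for Cct4 and 1.53 ± 0.26 (adjusted p = 0.000111) for Cct7. Tcp1, the founding subunit, had signals of 168 and 122 at day 0, 182 and 165 at day 14, 328 and 299 at day 20 and 289 and 363 at day 56. For Tcp1 the log2 change from day 0 to day 56 was 1.09 ± 0.29 (adjusted p = 0.0051). In these 4 the samples of day 56 lay above those of day 0. The Cct3 call was lost without sample 2 of day 0 (0.88, adjusted p = 0.0169) and with the mean of its probe sets (0.78, adjusted p = 0.00125). For Cct3 it was also lost without probe sets of a suffixed name (0.98, adjusted p = 0.00339). The Cct4 call was lost with the mean of its probe sets (0.71, adjusted p = 0.00191). The Tcp1 call was lost without sample 2 of day 0 (0.88, adjusted p = 0.0541), without sample 2 of day 56 (0.94, adjusted p = 0.0531) and with the mean of its probe sets (0.25, adjusted p = 0.76). For Tcp1 it was also lost with a pseudocount of 64 (0.90, adjusted p = 0.00356).

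From day 14 to day 20, 3 of the 8 ring subunits rose (7.45% of all genes) and 5 were not called. The 3 were Cct3 (log2 change 1.03 ± 0.28, adjusted p = 0.0147), Cct5 (log2 change 1.0 ± 0.23, adjusted p = 0.00445) and Cct7 (log2 change 1.12 ± 0.26, adjusted p = 0.00534). The Cct3 step was lost without sample 1 of day 14 (1.06, adjusted p = 0.0642), without sample 2 of day 14 (0.99, adjusted p = 0.0857), without sample 1 of day 20 (0.60, adjusted p = 0.17) and with the mean of its probe sets (0.80, adjusted p = 0.00329). For Cct3 it was also lost with a pseudocount of 64 (1.0, adjusted p = 0.0127), after quantile normalization (0.83, adjusted p = 0.0188) and without probe sets of a suffixed name (0.95, adjusted p = 0.0109). The Cct5 step was lost without sample 1 of day 14 (0.89, adjusted p = 0.0548) and without sample 1 of day 20 (0.73, adjusted p = 0.0483). For Cct5 it was also lost with a pseudocount of 64 (0.97, adjusted p = 0.00426) and after quantile normalization (0.83, adjusted p = 0.00325). The Cct7 step was lost without sample 1 of day 14 (0.90, adjusted p = 0.0784) and without sample 1 of day 20 (0.90, adjusted p = 0.0457). For Cct7 it was also lost after quantile normalization (0.96, adjusted p = 0.0106). Cct5 ranged over 849 to 1364 (median 1114) over days 0 to 10, 977 to 2595 (median 1485) over days 14 to 20 and 1543 to 1854 (median 1685) over days 30 to 56, and its change by day 56 was not called (log2 change 0.64 ± 0.23, adjusted p = 0.0294).

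The other 3 subunits were not called by day 56. Cct2 ranged over 171 to 294 (median 239) over days 0 to 10, 167 to 314 (median 213) over days 14 to 20 and 248 to 398 (median 338) over days 30 to 56. For Cct2 the log2 change was 0.54 ± 0.23 (adjusted p = 0.0653). Cct8 ranged over 321 to 857 (median 569) over days 0 to 10, 738 to 1202 (median 826) over days 14 to 20 and 468 to 514 (median 477) over days 30 to 56. For Cct8 the log2 change was 0.27 ± 0.25 (adjusted p = 0.4), with its highest levels before day 30. Cct6a ranged over 261 to 469 (median 364) over days 0 to 10, 297 to 524 (median 421) over days 14 to 20 and 180.0 to 355 (median 241) over days 30 to 56. For Cct6a the log2 change was 0.09 ± 0.29 (adjusted p = 0.821).

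Cct6b, the second form of the zeta subunit and known from testis, had signals of 111 and 30.9 at day 0, 85.1 and 141 at day 10, 359 and 286 at day 14, 1724 and 555 at day 18, 1397 and 1489 at day 20, 1934 and 2029.6 at day 30 and 1354 and 1288 at day 56. Every sample from day 14 on was above every sample up to day 10, and at days 0, 3, 8 and 18 the samples of a day differed by more than 2-fold. It rose from day 14 to day 20 (log2 change 2.12 ± 0.54, adjusted p = 0.0103) and by day 56 (log2 change 4.11 ± 0.54, adjusted p = 8.9e-06). The step from day 14 to day 20 was lost without sample 2 of day 14 (1.96, adjusted p = 0.0764). A further probe set of Cct6b gave a log2 change of 4.83 ± 0.28 (adjusted p = 5.38e-10).

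Cct8l1, a relative of Cct8, had signals of 30.3 and 24.8 at day 0, 31.1 and 33.1 at day 14, 35.5 and 27.1 at day 18, 41.5 and 30.1 at day 20, 1278 and 970.1 at day 30, 1609 and 1328 at day 35 and 2313 and 1681 at day 56. The highest of its 16 samples up to day 20 was 41.5 and the lowest of the 6 later ones 970.1. It passed the signal filter through those 6 samples alone. The step from day 20 to day 35 had a log2 change of 4.84 ± 0.28 (adjusted p = 1.45e-09), and the change from day 0 to day 56 a log2 change of 5.52 ± 0.28 (adjusted p = 1.51e-10).

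Both genes of the mitochondrial chaperonin fell. Hspd1, its barrel, had signals of 1133 and 1161 at day 0, 1136 and 1477 at day 10, 1198 and 1330.2 at day 14, 959.9 and 440.0 at day 18, 330.5 and 566 at day 20, 307 and 410.1 at day 30 and 143 and 329.8 at day 56. Hspe1, the lid, had signals of 1364 and 813 at day 0, 964 and 988 at day 10, 770.3 and 695 at day 14, 637 and 315 at day 18, 400.5 and 338 at day 20, 203 and 225 at day 30 and 161 and 198 at day 56. All samples of Hspe1 from day 18 on were under all earlier ones, and those of Hspd1 were too, apart from sample 1 of day 18. From day 0 to day 56 Hspd1 showed a log2 change of -2.31 ± 0.36 (adjusted p = 3.87e-05) and Hspe1 a log2 change of -2.46 ± 0.27 (adjusted p = 7.46e-07). The Hspd1 fall was called from day 14 to day 20 (log2 change -1.51 ± 0.36, adjusted p = 0.00594) and that of Hspe1 from day 20 to day 35 (log2 change -1.20 ± 0.27, adjusted p = 0.00562). The Hspd1 step was lost without sample 1 of day 20 (-1.13, adjusted p = 0.0625) and with the mean of its probe sets (-0.65, adjusted p = 0.0592). The dimmer probe set of Hspd1 went the other way, with signals of 13.6 and 46.1 at day 0, 26.5 and 17.6 at day 20 and 85.7 and 120.5 at day 56. It gave a log2 change of 1.46 ± 0.39 (adjusted p = 0.00597), and Hspd1 was the only member with opposite calls among its probe sets. With the mean of both probe sets the Hspd1 change by day 56 was -0.43 (adjusted p = 0.153).

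**Figure D4:**
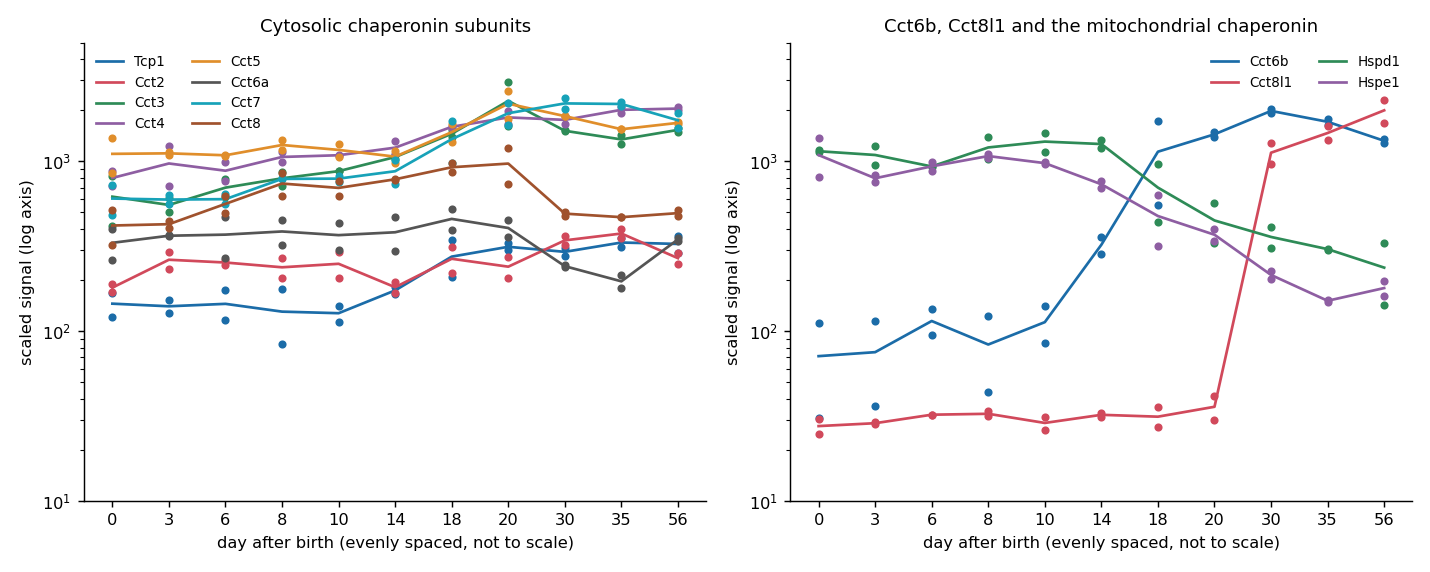
Scaled signal (log axis) by day after birth (days evenly spaced) for the 8 ring subunits of the cytosolic chaperonin on the left, and for Cct6b, Cct8l1 and the mitochondrial Hspd1 and Hspe1 on the right; points are samples (2 per day), lines the means. Cct6b was above its early range from day 14, Cct8l1 from day 30, and Hspd1 and Hspe1 declined after day 14.

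Of 7 small heat shock proteins, Hspb6 and Hspb9 rose and Hspb2 fell between day 0 and day 56 (15.9% and 21.2% of all genes). Hspb9, known as a testis protein, had signals of 14.2 and 24.1 at day 0, 27.6 and 59.8 at day 8, 8 and 6.4 at day 14, 126 and 68.4 at day 18, 114 and 111 at day 20, 192 and 153 at day 30 and 246 and 118 at day 56. The highest of its 12 samples up to day 14 was 59.8 and the lowest of the 10 later ones 68.4. It rose from day 14 to day 20 (log2 change 2.47 ± 0.41, adjusted p = 0.000416) and from day 0 to day 56 (log2 change 2.43 ± 0.41, adjusted p = 9.33e-05). Hspb6, best known from muscle, had signals of 197 and 242 at day 0, 209.5 and 236 at day 14, 666 and 763 at day 20 and 457 and 466 at day 56. The step from day 14 to day 20 (log2 change 1.61 ± 0.24, adjusted p = 0.00015) was larger than the change by day 56 (log2 change 1.03 ± 0.24, adjusted p = 0.00165). The Hspb6 call at day 56 was lost without sample 1 of day 0 (0.89, adjusted p = 0.0196). For Hspb6 it was also lost with a pseudocount of 64 (0.89, adjusted p = 0.00177) and after quantile normalization (0.98, adjusted p = 0.00186). The 7 markers of peritubular and smooth muscle cells summed to 1217 to 2422 over days 14 to 20 and 1755 to 2536 over days 30 to 56, against 2185 to 3741 before. Hspb2, also a muscle protein, had signals of 239.7 and 647 at day 0, 203 and 255 at day 14, 61.7 and 360.0 at day 20 and 148 and 53.7 at day 56. For Hspb2 the log2 change from day 0 to day 56 was -1.94 ± 0.68 (adjusted p = 0.0262). This call was lost without sample 2 of day 0 (-1.26, adjusted p = 0.228) and without sample 2 of day 56 (-1.33, adjusted p = 0.221). For Hspb2 it was also lost after scaling to array medians (-1.64, adjusted p = 0.0596) and with array weights (-1.94, adjusted p = 0.0551). The other probe set of Hspb2 gave a log2 change of -0.48 ± 0.23 (adjusted p = 0.105). Hspb1 ranged over 4.7 to 185 (median 36.8) over days 0 to 10, 18.6 to 82.9 (median 42.5) over days 14 to 20 and 6 to 111 (median 65.7) over days 30 to 56, with samples of the same day far apart. It was not called (log2 change 0.33 ± 0.85, adjusted p = 0.779). Hspb3, Hspb7 and Hspb8 were not called either, with changes of -0.41, 0.0 and -0.69. The same holds for Hspb11 (0.67), Hspbp1 (-0.77) and Hspbap1 (-0.12), which the prefix took in. Another probe set was called lower for Hspbp1 (-1.23) and for Hspbap1 (-1.12).

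Of the 40 DnaJ genes, 13 rose and 2 fell between day 0 and day 56, against 15.9% and 21.2% of all genes. Among the 4 of class A, Dnaja4 rose and Dnaja1, Dnaja2 and Dnaja3 were not called. Dnaja4 had signals of 23.6 and 31.4 at day 0, 23.9 and 91.2 at day 14, 27.8 and 48.2 at day 18, 23.7 and 5.5 at day 20, 2147 and 2254 at day 30, 2772 and 2923 at day 35 and 1982 and 1970.3 at day 56. The highest of the 16 samples up to day 20 was 91.2 and the lowest of the 6 later ones 1970.3, and the step lay between the same days as those of Hspa1l and Cct8l1. The step from day 20 to day 35 had a log2 change of 6.61 ± 0.50 (adjusted p = 4.51e-08), and the change by day 56 a log2 change of 5.52 ± 0.50 (adjusted p = 1.4e-07). The other probe sets of Dnaja4 moved less, 1 with a log2 change of 2.04 ± 0.23 (adjusted p = 1.4e-06) and 1 with a log2 change of 0.61 ± 0.29 (adjusted p = 0.102). Dnaja1, the common cytosolic partner of Hspa8, ranged over 385 to 620.0 (median 464) over days 0 to 10, 275 to 553 (median 481) over days 14 to 20 and 269 to 342 (median 318) over days 30 to 56. No change of Dnaja1 was called (by day 56, log2 change -0.50 ± 0.25, adjusted p = 0.107).

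In class B, 7 of 13 rose and none fell between day 0 and day 56 (15.9% and 21.2% of all genes). Dnajb3, a J protein of spermatids, had signals of 58.5 and 38.3 at day 0, 62.5 and 64.9 at day 10, 209 and 162 at day 14, 942 and 1679.9 at day 18, 1955 and 1756 at day 20, 3853 and 3558 at day 30 and 4953 and 5214 at day 56. Its samples of day 14 were above those of day 10, and those of days 30 and 56 above all earlier ones. Its change by day 56 was the largest of the 78 on the probe sets used (log2 change 6.32 ± 0.34, adjusted p = 1.4e-10), with a step from day 14 to day 20 (log2 change 3.22 ± 0.34, adjusted p = 6.29e-06). From day 20 to day 35 the change was smaller (log2 change 1.12 ± 0.34, adjusted p = 0.0355). This last call was lost without any 1 of the samples of days 20 and 35 (1.04 to 1.20, adjusted p from 0.0689 to 0.16) and with the mean of its probe sets (0.79, adjusted p = 0.043). For Dnajb3 it was also lost with a pseudocount of 1 (1.13, adjusted p = 0.0705), with a floor of 32 (1.13, adjusted p = 0.0741), after quantile normalization (1.05, adjusted p = 0.0723), after scaling to array medians (1.04, adjusted p = 0.0754) and with array weights (1.12, adjusted p = 0.117). Of its 3 probe sets, 1 was not called (log2 change -0.35 ± 0.32, adjusted p = 0.42).

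Dnajb13, a protein of the radial spokes of the sperm tail, had signals of 66.9 and 119.6 at day 0, 89.5 and 81.3 at day 10, 144 and 85.5 at day 14, 234 and 219 at day 20, 1215 and 1569 at day 30 and 1181 and 1368 at day 56. Its main step came between days 20 and 35 (log2 change 2.57 ± 0.27, adjusted p = 1.73e-06), on top of a smaller rise at day 18 (by day 56, log2 change 3.60 ± 0.27, adjusted p = 7.87e-09). The step was lost with the mean of its probe sets (0.85, adjusted p = 0.0355). Dnajb7 had signals of 19.9 and 8.1 at day 0, 10.7 and 8.2 at day 14, 2.4 and 6.3 at day 20, 174 and 160.4 at day 30, 203 and 62.8 at day 35 and 209.8 and 206 at day 56. From day 20 to day 35 it had a log2 change of 2.70 ± 0.46 (adjusted p = 0.000455), and by day 56 a log2 change of 2.93 ± 0.46 (adjusted p = 3.86e-05). Its 16 samples up to day 20 were at 32.9 or less, where the added 16 weighs on the change. Dnajb5 had signals of 10.5 and 27.6 at day 0, 15.5 and 6 at day 20, 72.8 and 49.7 at day 30 and 50.1 and 65.6 at day 56. For Dnajb5 the log2 change from day 0 to day 56 was 1.11 ± 0.38 (adjusted p = 0.0234). This call was lost without sample 1 of day 0 (0.75, adjusted p = 0.202) and without sample 2 of day 56 (0.96, adjusted p = 0.124). For Dnajb5 it was also lost with a pseudocount of 64 (0.56, adjusted p = 0.0161) and with a floor of 32 (0.84, adjusted p = 0.00694).

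The other class B genes that rose were Dnajb1, Dnajb2 and Dnajb9. Dnajb2, a J protein with ubiquitin-binding motifs, had signals of 80.7 and 243 at day 0, 209.9 and 250.4 at day 10, 232 and 282 at day 14, 916 and 500.3 at day 18, 797 and 1959.6 at day 20, 1145 and 910.5 at day 30 and 1553 and 1104 at day 56. It rose from day 14 to day 20 (log2 change 2.22 ± 0.43, adjusted p = 0.00181) and by day 56 (log2 change 3.07 ± 0.43, adjusted p = 1.95e-05). The samples of day 20 differed more than those of any later day, and 1 of its 4 probe sets was lower at day 56 without being called (log2 change -1.57 ± 0.67, adjusted p = 0.071). Dnajb1, the classical heat-inducible partner of Hsp70, had signals of 208 and 126 at day 0, 217 and 246 at day 14, 347 and 629 at day 18, 1035 and 674 at day 20, 531 and 631 at day 30 and 562 and 514 at day 56. For Dnajb1 the log2 change from day 0 to day 56 was 1.64 ± 0.28 (adjusted p = 0.000122). It was highest at day 20 and from day 14 to that day had a log2 change of 1.79 ± 0.28 (adjusted p = 0.000287). The Dnajb1 step was lost with the mean of its probe sets (0.94, adjusted p = 0.0135). Its other probe set gave a log2 change of 0.43 ± 0.42 (adjusted p = 0.448) by day 56. Dnajb9, a partner of Hspa5 in the endoplasmic reticulum, had signals of 31.2 and 19.3 at day 0, 105 and 59.6 at day 8, 163 and 123 at day 14, 209 and 258 at day 18, 75.3 and 284 at day 20, 676 and 571 at day 30 and 761 and 754 at day 56. It rose by day 56 (log2 change 4.24 ± 0.43, adjusted p = 2.8e-07). Sample 1 of day 20 was lower than both samples of days 14 and 18. Its step from day 20 to day 35 was lost without sample 1 of day 20 and with the mean of its probe sets (1.0, adjusted p = 0.0698). Without that sample the log2 change was 1.07. The other probe set of Dnajb9 was also called higher by day 56 (1.71), but its mean was highest at day 14. Its signals were 52.7 and 125 at day 0 and 378 and 499 at day 14. At day 30 they were 254 and 259, and at day 56 they were 315 and 296.

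For 3 class B genes the brightest probe set was not called and another was. Dnajb8, a testis-enriched J protein that holds back aggregation, was flat on its brightest probe set, with signals of 415 and 426 at day 0, 471 and 394 at day 20, 515 and 498 at day 30 and 481 and 369.8 at day 56 (log2 change 0.0 ± 0.27, adjusted p = 0.992). On its other probe set it had signals of 6.1 and 8.3 at day 0, 20.7 and 13.2 at day 14, 24 and 59.9 at day 18, 25.3 and 20.3 at day 20, 1189.5 and 1162 at day 30 and 1098 and 1162 at day 56. That probe set gave a log2 change of 5.63 ± 0.30 (adjusted p = 2.36e-10), and all late samples of that probe set were above all early ones. Dnajb6, a close relative, gave signals of 561 and 551 at day 0, 478 and 884 at day 20 and 933 and 909 at day 56 on its brightest probe set (log2 change 0.71 ± 0.23, adjusted p = 0.0156). Another of its probe sets gave 98.7 and 139 at day 0, 394 and 581 at day 20, 895 and 980.4 at day 30 and 748 and 821 at day 56 (log2 change 2.58 ± 0.26, adjusted p = 4.24e-07). Dnajb4 had a log2 change of 0.82 on the brightest and a log2 change of 3.63 ± 0.37 (adjusted p = 5.61e-07) on its other probe set. The signals of the latter were 25.5 and 78.2 at day 0, 24.7 and 80.7 at day 20, 564 and 534 at day 30 and 764 and 757 at day 56. Which probe set follows the transcript was not tested, and over the list 24 of 41 members with more than 1 probe set had at least 1 whose call at day 56 differed from another. Dnajb11 (0.81), Dnajb12 (0.09) and Dnajb14 (0.20) were not called by day 56.

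**Figure D5:**
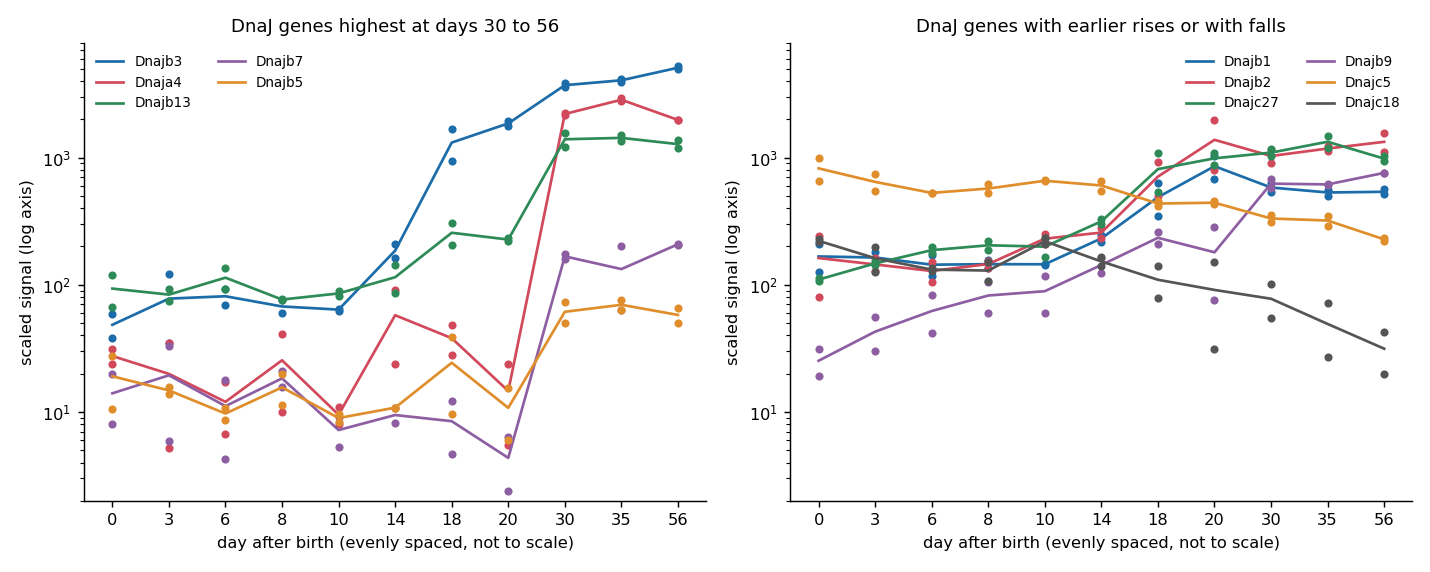
Scaled signal (log axis) by day after birth (days evenly spaced) for Dnajb3, Dnaja4, Dnajb13, Dnajb7 and Dnajb5 on the left and Dnajb1, Dnajb2, Dnajc27, Dnajb9, Dnajc5 and Dnajc18 on the right; points are samples (2 per day), lines the means. Dnajb3 was raised by day 18, whereas Dnaja4 was at 91.2 or less in every sample up to day 20 and at 1970.3 or more from day 30.

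In class C, whose members share only the J domain, 5 of 23 rose and 2 fell, with a median change of -0.02. Over all genes 15.9% rose and 21.2% fell between day 0 and day 56. Dnajc27, a small GTPase joined to a J domain, had signals of 112 and 107 at day 0, 299 and 331 at day 14, 1088 and 534 at day 18, 1094 and 878 at day 20 and 938 and 1021 at day 56. For Dnajc27 the log2 change from day 0 to day 56 was 2.98 ± 0.27 (adjusted p = 6.73e-08). Dnajc15, which acts at the protein import channel of mitochondria, had signals of 148 and 141 at day 0, 263 and 199 at day 14, 507 and 534 at day 20, 939 and 859 at day 30 and 1091 and 1092 at day 56. For Dnajc15 the log2 change from day 0 to day 56 was 2.79 ± 0.22 (adjusted p = 1.29e-08). Dnajc2, the ribosome-associated partner of Hspa14, had signals of 198 and 277 at day 0, 547 and 594 at day 14, 327 and 941 at day 20 and 1011 and 1154 at day 56. For Dnajc2 the log2 change from day 0 to day 56 was 2.13 ± 0.33 (adjusted p = 4.51e-05), opposite in sign to that of Hspa14. The Hspa14 call was lost under 4 alternatives. From day 0 to day 10 the means of both genes went up, from 106 to 175 for Hspa14 and from 238 to 499 for Dnajc2. Dnajc4 rose mainly from day 14 to day 20 (log2 change 1.60 ± 0.24, adjusted p = 0.000208), and Dnajc21, a factor of ribosome assembly, by day 56 (log2 change 1.67 ± 0.44, adjusted p = 0.00449). The Dnajc21 call was lost without sample 1 of day 56 (1.21, adjusted p = 0.0793) and with the mean of its probe sets (0.80, adjusted p = 0.00912). The step of Dnajc15 from day 14 to day 20, with a log2 change of 1.13 ± 0.22 (adjusted p = 0.00145), was lost without sample 2 of day 14 (0.94, adjusted p = 0.0308) and with the mean of its probe sets (0.35, adjusted p = 0.498). For Dnajc15 it was also lost with a pseudocount of 64 (0.99, adjusted p = 0.00106).

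Of the fallers, Dnajc18 had signals of 216 and 227 at day 0, 208 and 232 at day 10, 151 and 31.3 at day 20, 101 and 54.3 at day 30 and 42.8 and 20 at day 56. For Dnajc18 the log2 change from day 0 to day 56 was -2.37 ± 0.48 (adjusted p = 0.000541). At day 20 its samples were far apart. The Dnajc18 call was lost with the mean of its probe sets (-0.80, adjusted p = 0.116). Another of its probe sets had a log2 change of 0.70 ± 0.35 (adjusted p = 0.127). Dnajc5, the cysteine string protein of secretory vesicles, had signals of 654 and 990.2 at day 0, 658 and 548 at day 14, 453 and 430.0 at day 20, 311 and 352 at day 30 and 222 and 232 at day 56. It fell by day 56 (log2 change -1.75 ± 0.22, adjusted p = 3.45e-06) with no single step called.

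Dnajc3, the inhibitor of the kinase PERK in the endoplasmic reticulum, ranged over 78.6 to 132 (median 99) over days 0 to 10, 68 to 260.0 (median 247) over days 14 to 20 and 115 to 148 (median 119) over days 30 to 56. No change of Dnajc3 was called at day 56 (by day 56, log2 change 0.44 ± 0.36, adjusted p = 0.33). Another of its 5 probe sets gave a log2 change of 1.49 ± 0.26 (adjusted p = 0.000207). Dnajc7, a J protein that links Hsp70 to Hsp90, ranged over 146 to 620.0 (median 451) over days 0 to 10, 156 to 584 (median 434) over days 14 to 20 and 608 to 859 (median 714) over days 30 to 56. For Dnajc7 the log2 change was 0.84 ± 0.64 (adjusted p = 0.298). In Dnajc7 sample 1 was above sample 2 on every day, as at day 10 with 620.1 and 146. The fit leaves out the sample number and counts this difference as spread. The other 14 members of class C, among them Dnajc1 and Dnajc10 of the endoplasmic reticulum and Dnajc8 and Dnajc17, which act with the splicing machinery, were not called at day 56, with changes between -0.67 and 0.93.

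Related genes were set against each other by how far their difference in log2(signal + 16) moved between the means of the 10 samples of days 0 to 10 and of the 6 samples of days 30 to 56. The 5 pairs were chosen with the courses known, so the values are a description, with no test. Hspa2 gained 6.39 over Hspa8, from a change of 4.38 in the former and -2.01 in the latter, and Hspa1l gained 6.50 over the same gene. Cct6b gained 4.54 over Cct6a, with a change of 4.07 in the first gene and -0.47 in the second. Dnaja4 gained 6.71 over Dnaja1, which was 2.33 when the brightest probe set without a suffix in its name was used for Dnaja4. Hspa4l gained 1.46 over Hspa4, both of them with changes above 0 (2.38 and 0.92). In each pair the difference in every late sample lay above that in every early one.

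Of the 15 members with GAANNTTC in a window, 4 rose and 4 fell between day 0 and day 56 (median change 0.19). Of 51 with a window without it, 19 rose and 2 fell (median 0.64), and of 12 without a window, 3 rose and 4 fell (median -0.58). Over all genes 15.9% rose and 21.2% fell. The 4 that rose were Cct8l1, Dnaja4, Dnajc27 and Hspb6, and those that fell Hspa1a, Hspa1b, Hspd1 and Hspe1. The windows of Hspa1a and Hspa1b differ at only 4 bases, and a window of Hspd1 overlaps that of Hspe1 by 285 bases. The 4 that fell are therefore not 4 separate sequences. A link between the letters and the changes was not tested.

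Of 118 genes that regulate or help chaperones and lie outside the list, 98 were measured, and 23 rose and 15 fell between day 0 and day 56 (15.9% and 21.2% of all genes). Among 4 measured factors of the heat shock response, Hsf2bp, a partner of heat shock factor 2 in meiotic germ cells, had signals of 357 and 758 at day 0, 724 and 764 at day 8, 1923 and 2275 at day 14, 3598 and 7711 at day 20, 2402 and 2474 at day 35 and 3295 and 3068 at day 56. For Hsf2bp the log2 change was 2.57 ± 0.31 (adjusted p = 3.68e-06). It rose at days 14 and 20 and fell from day 20 to day 35 (log2 change -1.11 ± 0.31, adjusted p = 0.0253). Hsbp1, which binds heat shock factor 1, rose (log2 change 1.27 ± 0.23, adjusted p = 0.000223), as did its relative Hsbp1l1 (log2 change 2.97 ± 0.40, adjusted p = 1.29e-05), and Hsf2 was not called (log2 change 0.88 ± 0.41, adjusted p = 0.0864).

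Of 22 Hsp90 co-chaperones 5 rose and 2 fell between day 0 and day 56. Over all genes 15.9% rose and 21.2% fell, and these shares also stand against the other counts of this paragraph. Fkbpl had signals of 44.4 and 49.4 at day 0, 350.3 and 198 at day 20 and 630.4 and 556 at day 56 (log2 change 3.27 ± 0.34, adjusted p = 3.96e-07), Cdc37l1 changed by 2.78 and Pih1d2 by 2.34. Of 14 exchange and helper factors of Hsp70, Bag5 (log2 change 3.18 ± 0.30, adjusted p = 1.1e-07) and Bag1 (log2 change 1.29 ± 0.22, adjusted p = 8.73e-05) rose and none fell. Of 17 prefoldin and chaperonin helpers, 2 rose and 5 fell. Pdcl2, a phosducin-like partner of the cytosolic chaperonin in germ cells, had signals of 2.2 and 2.2 at day 0, 1.8 and 5.6 at day 8, 222 and 388 at day 14, 2662 and 589 at day 20 and 6212 and 5467 at day 56 (log2 change 8.33 ± 0.57, adjusted p = 2.18e-09), while the prefoldin-like subunits Uri1 (log2 change -2.44 ± 0.22, adjusted p = 1.16e-07) and Uxt (log2 change -2.33 ± 0.51, adjusted p = 0.00103) fell. The rise of Pdcl2 was called from day 8 to day 14 (log2 change 3.98 ± 0.57, adjusted p = 0.0006).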

How the data were processed

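Deposited signal intensities of 66 arrays (11 days, 2 numbered samples, 3 array types) were used as given. The authors scaled them to a mean of 125, per the labels; the scanner software and detection calls are not given in the sources used here, and precision rests on how many arrays there are. Probe sets were named from the platform annotation, and those naming several genes and control probe sets were left out. Genes needed a signal of 50 on 2 arrays of a type, and the brightest probe set was taken. Day means of log2(signal + 16) were fitted per type with limma 3.58.1 (R 4.3.3; empirical Bayes with trend, no block), adjusted by Benjamini-Hochberg over all genes, and the code was tested on simulated data. A call over all days used the F-test and a 2-fold range. Pairs of genes were compared in Python 3.11.15 with scipy 1.17.1, and no p-value is given for them, since they were chosen with their courses known. RefSeq gene IDs matched all 78 members.

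Values by sample are given for up to 4 called rises and 4 called falls with the largest changes in each comparison, for textbook members and for both genes of each pair; of the helper lists, up to 3 genes a list and each called heat shock factor. Members and lists were chosen with earlier results of these data known. Every probe set was also fitted, which was decided after seeing the data, with p-values adjusted over all probe sets. Alternatives were other pseudocounts (1, 64), a floor of 32, no filter or one of 125, other scalings, probe sets averaged or chosen by name, array weights, the sample number as a block, and each sample left out.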

Additional observations from a re-analysis of the deposited data

How the results depend on the processing

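None of the 64 calls of a member in a comparison changed sign, nor did any of the 5 differences between related genes. Of those calls, 38 held under each of the 33 alternatives that measured them, 20 were lost without 1 sample and 23 under another setting, most often with the mean of a gene's probe sets. The count of members called from day 0 to day 8, 1, was 2 with the mean of probe sets and 0 to 3 without 1 sample. From day 8 to day 14 the count of 3 was 1 with array medians scaled, 6 with array weights and 1 to 4 without 1 sample (1 without sample 2 of day 8 or either sample of day 14). Counted over both directions, the other counts stayed within 1.5 times their value under every alternative: without 1 sample, 11 to 19 from day 14 to day 20, 7 to 14 from day 20 to day 35, 32 to 37 from day 0 to day 56 and 42 to 48 over all days. After scaling to array medians the change of the median gene from day 14 to day 20 was 0.10 in place of -0.11 and that of the median member 0.24 in place of -0.02. The counts of falls were less stable: from day 14 to day 20 the single fall was 0 with the mean of probe sets, 2 with a pseudocount of 1, a floor of 32 or quantile normalization, and 1 to 5 without 1 sample, and from day 20 to day 35 the 2 falls were 5 with a pseudocount of 1 or a floor of 32, 4 after scaling to array medians, and 1 to 7 without 1 sample. With the sample number as a replicate block, 1, 4, 14, 10, 0 and 36 members were called in the 6 comparisons and 50 over all days. Of all genes, 3.08%, 1.67%, 16.7%, 11.3%, 0.178% and 37.6% were called there, and 57% over all days. The share of all genes also moved with the setting. From day 8 to day 14 it was 1.43% in the main fit, 1.4% with array medians scaled and 2.76% with array weights. From day 0 to day 8 it was 2.68% in the main fit and 2.58% with the mean of probe sets. Deviations of same-numbered samples correlated over 0.1 in 28, 34 and 23 of 55 pairs of days on the 3 array types. The medians were 0.10, 0.13 and 0.07 and the highest values 0.55, 0.39 and 0.29. Samples of the same number may thus share an effect, which the main fit does not take into account, and the labels do not say what the numbers stand for. The gain of Dnaja4 over Dnaja1 ranged from 2.33 to 7.75. Signals under 50, as for Dnajb7, Hspb9 and Pdcl2 at early days, carry little information on level.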

Other observations

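Of 26 measured genes of folding in the endoplasmic reticulum, 7 rose and 5 fell between day 0 and day 56, against 15.9% and 21.2% of all genes. Clgn, a lectin chaperone of germ cells, had signals of 26.2 and 35.6 at day 0, 51.7 and 59.2 at day 8, 269 and 239.7 at day 14, 441 and 1011 at day 20 and 1478 and 1402 at day 56. For Clgn the log2 change was 4.96 ± 0.32 (adjusted p = 1.09e-09), and was called already from day 8 to day 14 (log2 change 1.92 ± 0.32, adjusted p = 0.00234). Ero1b, an oxidase that forms disulfides, had signals of 43.1 and 72.3 at day 0, 69.9 and 64.6 at day 8, 256 and 251 at day 14, 399.9 and 600.1 at day 20 and 1151 and 1134 at day 56. For Ero1b the log2 change was 4.0 ± 0.23 (adjusted p = 2.48e-10). Serpinh1, the collagen chaperone, fell, with signals of 1545 and 928 at day 0, 210.4 and 131 at day 20 and 79.3 and 99.5 at day 56 (log2 change -3.53 ± 0.25, adjusted p = 3.99e-09).

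Of 12 mitochondrial proteases and chaperone helpers, 3 rose and 3 fell, against the same shares of all genes. Clpb, a disaggregase, had signals of 79.9 and 331 at day 0, 63.9 and 528 at day 20 and 2968 and 2362 at day 56. For Clpb the log2 change was 3.87 ± 0.68 (adjusted p = 0.000164), and Pam16, of the import motor, rose (log2 change 2.38 ± 0.23, adjusted p = 1.8e-07). Lonp1, the matrix protease, fell (log2 change -3.10 ± 0.35, adjusted p = 9.62e-07), as the mitochondrial chaperonin genes did. Of 3 relatives of the small heat shock proteins, Odf1, a protein of the sperm tail, had signals of 57.1 and 52.1 at day 0, 58.7 and 92.3 at day 20 and 6559 and 6617 at day 56. For Odf1 the log2 change was 6.55 ± 0.28 (adjusted p = 1.12e-11), and it is also 1 of the 8 elongating spermatid markers, and Cryaa and Cryab were not called.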
